A study of Rattus norvegicus with 84 samples.

Results

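Axon guidance ligands and receptors were described here across the hippocampal regions labelled CA3, CA1 and DG (dentate gyrus) of the adult rat. The members were the genes whose symbols in the platform's probe annotation named semaphorins of classes 3 to 7, plexins, neuropilins, ephrins, Eph receptors, Slits, Robos, netrins, netrin-Gs, Unc5 receptors and Dcc. This gave 55 genes, measured by 58 probes, of 13337 named genes and 22523 probes on the Illumina bead array. Of the 55 genes, 32 encode ligands and 23 encode receptors. The study compared 28 male F1 hybrid rats of the F344xBN cross (Fischer by Brown Norway) aged 7 months, 7 in each of 4 groups, with 1 array for each of 3 microdissected regions, 84 arrays in all. SAHA (a histone deacetylase inhibitor) was given at 50 mg/kg intraperitoneally in undiluted DMSO, and vehicle rats received the same volume of DMSO. Rats were killed 90 min after the injection. The SAHA RPC and vehicle RPC groups swam 1 session of a redundant place-cue (RPC) water maze, of 17 trials, that began 10 min after the injection, and had a 60 s probe trial just before death. These rats had also been trained in a standard water maze a week before. The SAHA home cage and vehicle home cage groups had neither swim, so every group had an injection with DMSO, and no group separates the RPC session from the earlier training. The cells were not sorted, so each array holds the RNA of neurons, glia and vessels together.

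Guidance cues are secreted or membrane-bound ligands that steer growing axons by attraction or repulsion, and most act through a matching receptor family: semaphorins through plexins and neuropilins, ephrins through Eph receptors, Slits through Robos, and netrins through Dcc and Unc5. Receptor activation acts on small GTPases and the actin cytoskeleton. In the adult hippocampus many of these proteins persist at synapses and on dendritic spines, where Eph receptors and semaphorins are known to shape spine number and synaptic plasticity, and oligodendrocytes and vessels use some of the same genes.

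The region names were kept as the labels give them, because defining marker genes went against them. Wfs1, a marker of CA1 pyramidal neurons, was at 8.08 ± 0.92 log2 units in labelled CA3, 6.86 ± 0.77 in labelled CA1 and 10.65 ± 0.29 in labelled DG (mean ± SD, n = 28 arrays in each region). Prox1, which marks granule cells of the dentate gyrus, was detected on 0 of 28 arrays of labelled CA3, 28 of 28 of labelled CA1 and 4 of 28 of labelled DG. The CA1 marker list had mean levels per array of 6.63 to 7.96 in labelled CA3, 6.29 to 7.45 in labelled CA1 and 8.58 to 9.29 in labelled DG, while the granule cell list had 6 to 6.61, 7.18 to 7.78 and 6.66 to 7.27 in the same order. Every statement on labelled CA1 and labelled DG below therefore refers to the label and not to a settled tissue. Of the 84 arrays, 10 correlated less with the other arrays of their region than a limit of 5 median absolute deviations allows. They were SAHA home cage replicate 5, vehicle RPC replicate 1 and vehicle home cage replicate 6 of labelled CA1, and in labelled CA3 SAHA RPC replicates 1, 4 and 6 and vehicle RPC replicates 3, 4, 6 and 7. Mean array signal ranged from 428.2 to 904.8, and the share of probes detected was 44.01 ± 2.27% in labelled CA3, 41.96 ± 1.26% in labelled CA1 and 46.41 ± 1.06% in labelled DG (SD, n = 28 each).

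Which guidance genes were measurable was settled first. A probe counted as detected on an array where its detection p-value was under 0.01, and as tested in a region where this held on at least 7 of the 28 arrays. By that rule 34 of the 55 genes were tested in labelled CA3, 32 in labelled CA1 and 34 in labelled DG. In all 3 regions 29 were tested. Over all 84 arrays 39 genes passed, 21 ligands and 18 receptors, and 18 genes were detected on every array. Member probes passed more often than probes in general (67.2% against 50.6% of all probes). Since a gene detected in 1 region alone could pass through that region, these 39 are the detectable members and not the whole family.

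Of the 55 genes, 13 were detected on 0 of 84 arrays: the secreted semaphorins Sema3a and Sema3g, the ephrins Efna1, Efna4, Efna5 and Efnb2, the netrins Ntn1 and Ntn5, and the receptors Epha2, Ephb3, Robo3, Robo4 and Nrp2. A further 3 genes, Sema3c, Sema3d and Sema6d, were detected on 1 to 6 arrays. Of the ephrin-A ligands, 1 of 4 passed over all arrays (Efna2) and none within a single region. The 3 genes with 2 probes were Sema5a, Unc5d and Ntn5. The second probes of Sema5a and Unc5d were detected on 0 arrays, so for these genes the 2 probes disagreed and values below come from the brighter one. Undetected probes carry a limit of this array and give no statement that the RNA is missing.

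Levels of many members differed between regions. Over 39 members the median gap between the highest and the lowest region mean was 0.81 log2 units, against 0.45 over all 11403 probes tested. Between labelled CA1 and labelled DG, 35 of 39 members were called (limma, Benjamini-Hochberg adjusted p under 0.05), where 72.4% of all probes were called, and 9 differed at least 2-fold, 4 higher and 5 lower, against 4.6% of all probes (1.99% higher and 2.6% lower). Without background correction 5 members passed 2-fold, and the 9 include Sema5b, detected on 0 arrays of labelled CA1, and Unc5d, detected on 3 arrays of labelled DG. Between labelled CA3 and labelled CA1, 31 of 39 members were called, against 80.7% of all probes, with 9 over 2-fold, 5 higher and 4 lower, against 9.53% (4.6% higher and 4.93% lower). For labelled CA3 and labelled DG, 31 of 39 were called, against 75.4%, with 7 over 2-fold, 2 higher and 5 lower, against 6.12% (1.82% higher and 4.3% lower). Arrays of the 2 regions did not overlap at all for 5 members between labelled CA1 and labelled DG, 5 between labelled CA3 and labelled CA1 and 3 between labelled CA3 and labelled DG, against 5.41%, 7.13% and 5.36% of all probes. The plain counts of calls lay near the background in the last 2 comparisons, and a gene that passed the detection filter through 1 region alone had to differ, so the counts are a description. Among the 29 genes tested in all 3 regions, 7, 9 and 5 members passed 2-fold in the same 3 comparisons, against 4.16%, 8.59% and 5.66% of the 9605 probes so tested. By role, 12 ligands of 21 and 10 receptors of 18 were called higher in labelled CA1 than labelled DG, and 7 ligands and 6 receptors lower. These are 22 higher of 35 called, where 50.2% of all calls were higher. Under median scaling 16 of 33 called members were higher, where 24.4% of all calls were. In this unsorted tissue, fewer cells of a type and less RNA per cell cannot be told apart.

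**Figure D1:**
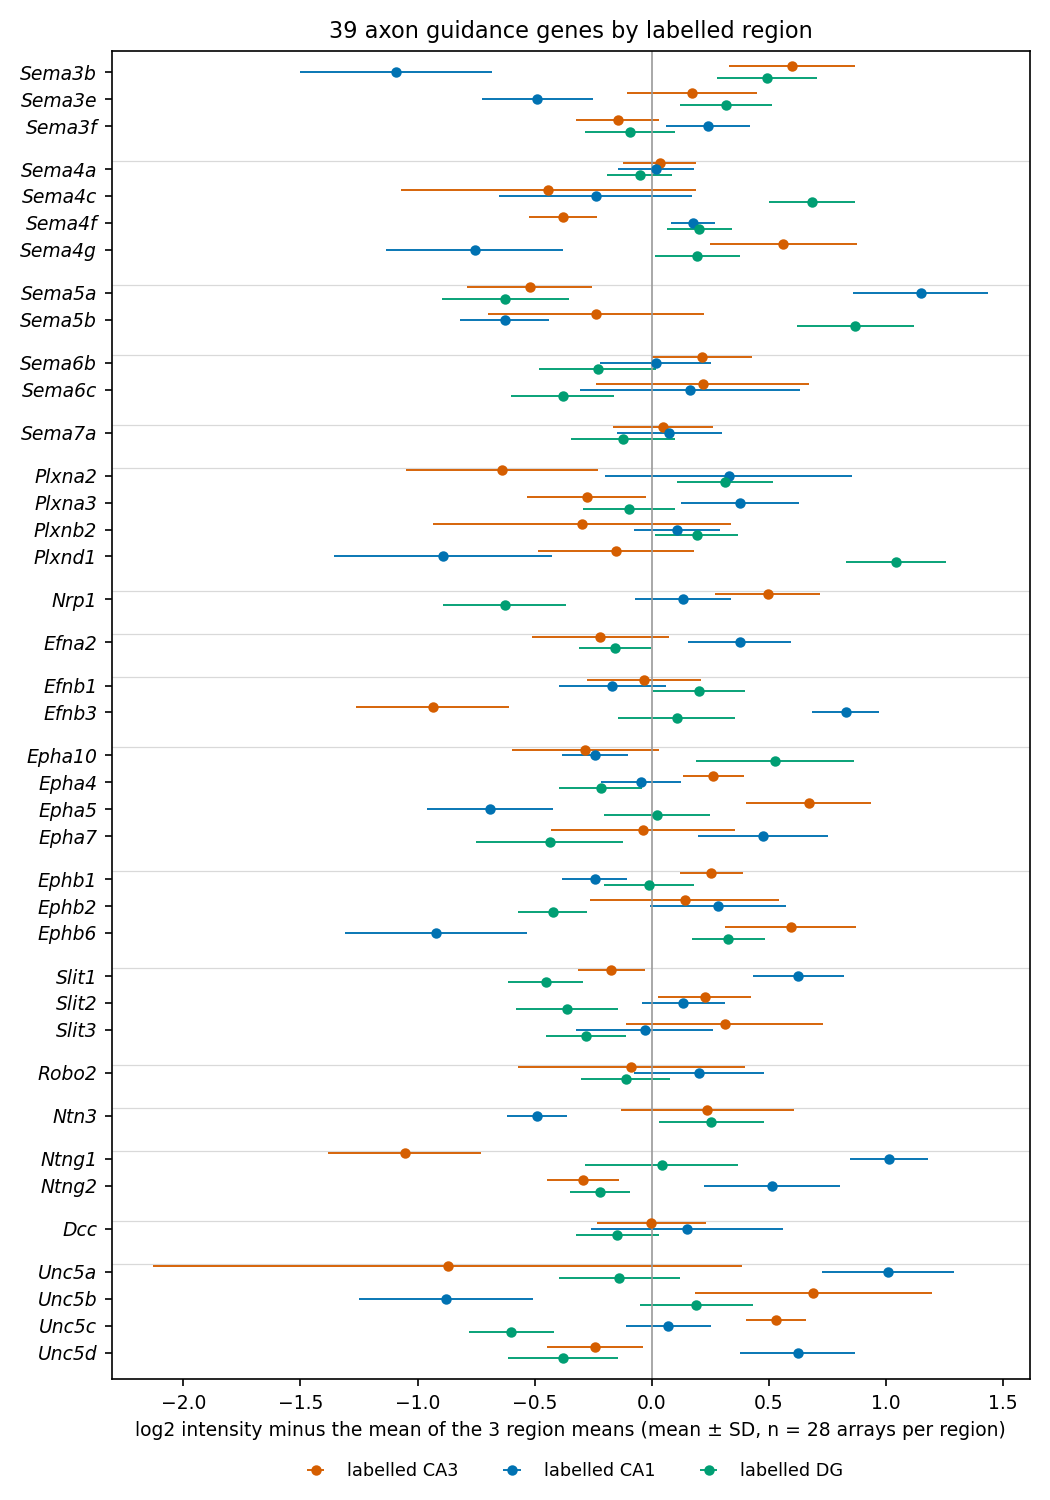
The 39 detectable guidance genes run down the page by family, and the x axis gives log2 intensity less the mean of the gene's 3 region means. Points are region means and bars SD (n = 28 arrays each). Ntng1, Unc5a, Sema5a and Efnb3 lie furthest right in labelled CA1, and Plxnd1 in labelled DG.

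The highest region also differed among members. Of the 39 members, 12 (30.8%) were highest in labelled CA1 and differed there from both other regions, where 23.3% of all probes did so. Labelled CA3 was highest for 10 members (25.6%, against 26.9% of all probes) and labelled DG for 6 (15.4%, against 16.6%), and 11 had no region that stood above both others. Quantile normalization gives each array 1 distribution. With each array only centred on its median instead, the median of all probes moved from 0 to -0.19 log2 units between labelled CA1 and labelled DG. It moved from 0 to 0.38 between labelled CA3 and labelled CA1 and from 0.02 to 0.2 between labelled CA3 and labelled DG. The share of calls that were higher moved to 24.4%, 78.8% and 68.9%, against 50.2%, 50.6% and 52.2% with quantile normalization. Under that scaling Slit3 and Sema6b turned direction between labelled CA1 and labelled DG, and Plxnb2 and Sema4f between labelled CA3 and labelled CA1, while 0 of the members over 2-fold did.

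Among the ligands, Sema5a and Sema5b, the transmembrane semaphorins with thrombospondin repeats, had opposite regional orders. Sema5a ran from 5.42 to 6.74 (median 6.24) in labelled CA3, from 7.17 to 8.65 (median 7.86) in labelled CA1 and from 5.72 to 6.77 (median 6.06) in labelled DG. The arrays of labelled CA1 all lay above those of both other regions. Sema5a was 3.42-fold higher in labelled CA1 than labelled DG (log2 difference 1.77 ± 0.07 SE, adjusted p = 5.39e-36), and labelled CA3 was 3.18-fold lower than labelled CA1 (-1.67 ± 0.07, adjusted p = 9.26e-35). Sema5b was detected on 8 of 28 arrays of labelled CA3, 0 of 28 of labelled CA1 and 28 of 28 of labelled DG, with medians of 5.59, 5.04 and 6.65. No array of labelled CA1 reached the lowest of labelled DG. Since the gene was not above background in labelled CA1, its level there was at least 1.43-fold lower than in labelled DG.

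The secreted class 3 semaphorins Sema3b and Sema3e were both lowest in labelled CA1. Sema3b ran from 6.89 to 8.19 (median 7.87) in labelled CA3, from 5.51 to 7.55 (median 6.12) in labelled CA1 and from 7.26 to 8.12 (median 7.74) in labelled DG. It was 3.23-fold higher in labelled CA3 than labelled CA1 (1.69 ± 0.08, adjusted p = 1.78e-33) and 3-fold lower in labelled CA1 than labelled DG (-1.58 ± 0.08, adjusted p = 1.89e-31). The regions overlapped through 1 array of labelled CA1, vehicle RPC replicate 1, which was among the arrays that stood apart. Without those arrays the differences were 1.7 and -1.67. Sema3e, a ligand that binds plexin-D1 directly, was detected on 14 of 28 arrays of labelled CA3, 0 of 28 of labelled CA1 and 24 of 28 of labelled DG. Sema3f, which acts through neuropilin-2, went the other way with 7.48 ± 0.18, 7.86 ± 0.18 and 7.53 ± 0.19 in the same order of regions, and labelled CA1 was higher than labelled DG by 0.33 ± 0.05 (adjusted p = 2.3e-08).

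Of the membrane-bound class 4 semaphorins, Sema4g was 2.49-fold higher in labelled CA3 than labelled CA1 (8.02 ± 0.31 against 6.7 ± 0.38, SD, n = 28 each, adjusted p = 9.69e-26). Sema4c was detected on 12 of 28 arrays of labelled CA3, 5 of 28 of labelled CA1 and 28 of 28 of labelled DG. These counts do not give the order of its levels. Sema4c was at 5.49 ± 0.63 in labelled CA3 and 5.69 ± 0.41 in labelled CA1, not called (adjusted p = 0.108, limma). Its difference between labelled CA3 and labelled DG was -1.13 ± 0.12 (adjusted p = 9.74e-14), and -0.76 without the arrays that stood apart. Sema4f was lower in labelled CA3 than labelled CA1 by 0.55 on the log2 scale under quantile normalization and in the opposite direction under median scaling (above). Sema4a varied little, with 10.48 ± 0.16, 10.46 ± 0.16 and 10.39 ± 0.14 in labelled CA3, CA1 and DG, as did the membrane-anchored Sema7a with 10.84 ± 0.21, 10.87 ± 0.22 and 10.67 ± 0.22. The class 6 members Sema6b and Sema6c were both higher in labelled CA3 than labelled DG, by 0.45 ± 0.06 and 0.6 ± 0.1.

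Among the ephrins, which signal in both directions between cells in contact, Efnb3 passed 2-fold in 2 comparisons. Efnb3 ran from 10.76 to 12.22 (median 11.36) in labelled CA3, from 12.67 to 13.4 (median 13.16) in labelled CA1 and from 11.74 to 12.85 (median 12.45) in labelled DG. Every array of labelled CA3 lay below every array of labelled CA1, a 3.39-fold difference (-1.76 ± 0.07, adjusted p = 9.4e-39). Against labelled DG the difference of labelled CA3 was -1.04 ± 0.07, and -0.98 without the arrays that stood apart. Efnb1 differed much less, with 7.58 ± 0.24, 7.44 ± 0.23 and 7.81 ± 0.2 in labelled CA3, CA1 and DG.

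The Slits, secreted repellents, were all higher in labelled CA1 than labelled DG, although Slit3 turned direction under median scaling. Slit1 ran from 10.64 to 11.22 (median 11.02) in labelled CA3, from 11.42 to 12.16 (median 11.8) in labelled CA1 and from 10.41 to 11.05 (median 10.74) in labelled DG. The arrays of labelled CA1 lay above all others, and the difference from labelled DG was 2.11-fold (1.08 ± 0.04, adjusted p = 9.89e-38). Slit2 and Slit3 were 0.5 ± 0.05 and 0.25 ± 0.08 higher in labelled CA1 than labelled DG. The one Robo receptor tested, Robo2, was at 6.79 ± 0.49 in labelled CA3, 7.08 ± 0.28 in labelled CA1 and 6.77 ± 0.19 in labelled DG.

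The netrin-Gs, which are anchored to the axon surface and bind partner proteins across the synapse rather than Dcc or Unc5, included the member with the widest range of region means, Ntng1. It ran from 7.52 to 8.81 (median 8.22) in labelled CA3, from 10.02 to 10.67 (median 10.35) in labelled CA1 and from 8.45 to 9.85 (median 9.36) in labelled DG. Labelled CA1 overlapped with neither other region. Ntng1 was 4.19-fold lower in labelled CA3 than labelled CA1 (-2.07 ± 0.07, adjusted p = 6.85e-41), the largest difference of any member between regions with quantile normalization. Its differences were 0.97 ± 0.07 between labelled CA1 and labelled DG and -1.1 ± 0.07 between labelled CA3 and labelled DG (-0.99 without the arrays that stood apart). Ntng2 was detected on 0 of 28 arrays of labelled CA3, 7 of 28 of labelled CA1 and 0 of 28 of labelled DG. It passed the detection filter through labelled CA1 alone, and most arrays there were not above background, so no fold is given. Ntn3, a secreted netrin, was detected on 14, 0 and 21 of 28 arrays of labelled CA3, CA1 and DG.

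**Figure D2:**
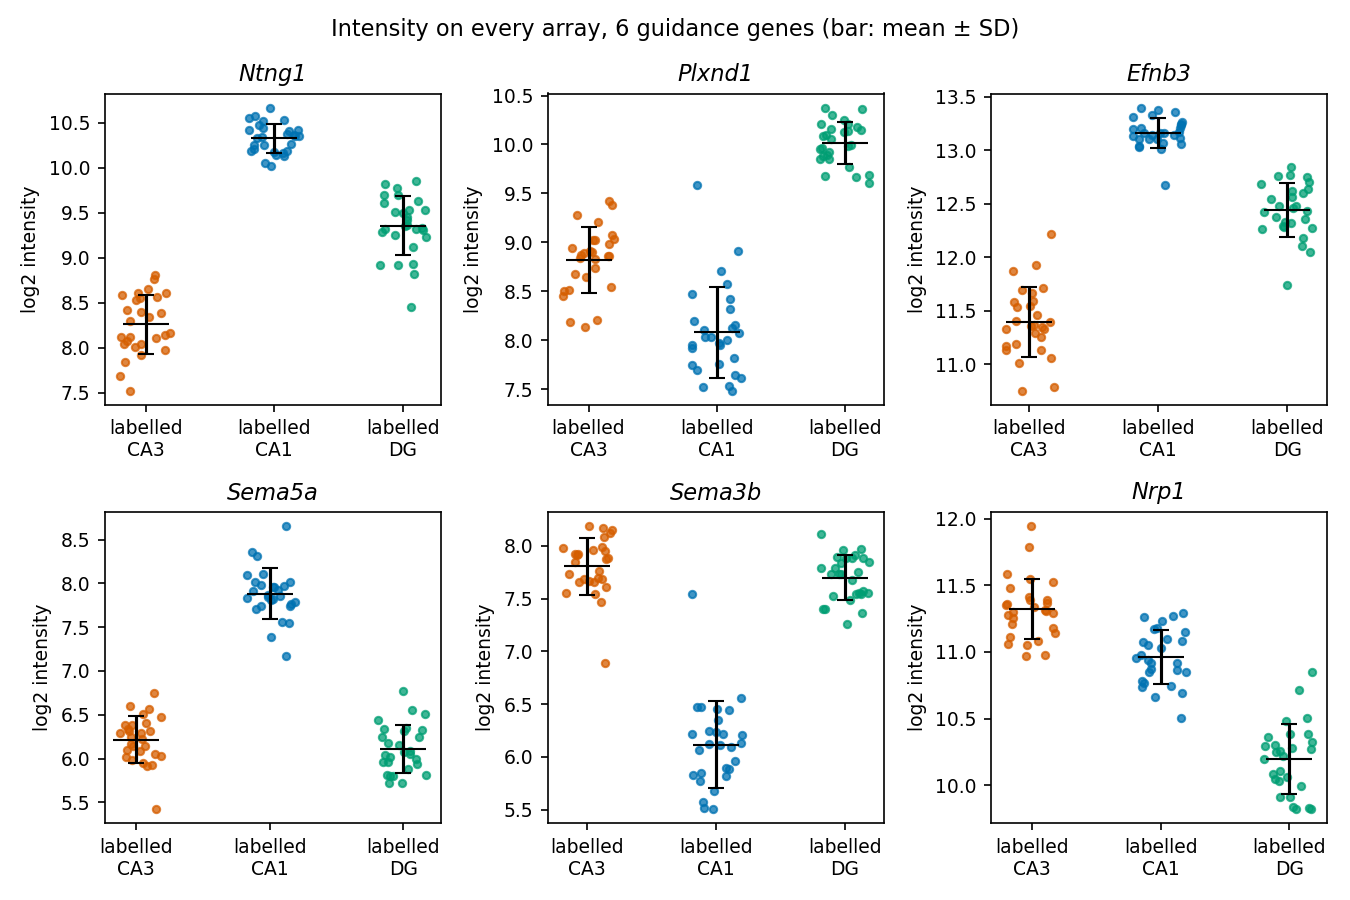
Log2 intensity (y axis) of 6 guidance genes on each array of labelled CA3, CA1 and DG, with 28 points a region and bars at mean ± SD. Ntng1 and Sema5a in labelled CA1 lie above all arrays of the other regions, Efnb3 in labelled CA3 lies below all arrays of labelled CA1, and 1 array of labelled CA1 lies near 7.55 for Sema3b.

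Among the receptors, Plxnd1, the plexin that binds Sema3e, was lowest in labelled CA1 and highest in labelled DG. Sema3e was also lowest in labelled CA1, a trait of 11 members (28.2%, against 24.4% of all probes). Its difference between labelled CA3 and labelled DG was small, at -0.14 ± 0.06 (adjusted p = 0.038, limma). On the 21 arrays of labelled CA3 that did not stand apart its median was 5.93, against 5.97 in labelled DG. Plxnd1 ran from 8.13 to 9.43 (median 8.87) in labelled CA3, from 7.49 to 9.59 (median 8.01) in labelled CA1 and from 9.6 to 10.38 (median 10.02) in labelled DG. Every array of labelled CA3 and of labelled CA1 lay below every array of labelled DG. The difference was 3.82-fold between labelled CA1 and labelled DG (-1.93 ± 0.09, adjusted p = 7.82e-32) and 2.29-fold between labelled CA3 and labelled DG (-1.2 ± 0.09, adjusted p = 5.33e-20). Plxna2 and Plxna3, receptors for class 3 and class 6 semaphorins, were lower in labelled CA3 than labelled CA1 by 0.97 and 0.65 on the log2 scale. Plxnb2, a receptor for class 4 semaphorins, was at 8.07 ± 0.64, 8.48 ± 0.18 and 8.56 ± 0.18 in labelled CA3, CA1 and DG. The co-receptor Nrp1 ran from 10.97 to 11.94 (median 11.31) in labelled CA3, from 10.51 to 11.29 (median 10.95) in labelled CA1 and from 9.82 to 10.85 (median 10.24) in labelled DG. Labelled CA3 lay wholly above labelled DG, by 2.18-fold (1.12 ± 0.06, adjusted p = 6.63e-28).

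Eph receptors differed in which region was high. Epha5, a receptor for ephrin-A ligands, ran from 10.16 to 11.58 (median 11.12) in labelled CA3, from 9.25 to 10.26 (median 9.8) in labelled CA1 and from 10.07 to 11.05 (median 10.49) in labelled DG, so that labelled CA3 was 2.57-fold higher than labelled CA1 (1.36 ± 0.07, adjusted p = 5.03e-31). The arrays of these 2 regions overlapped. Ephb6, a receptor without kinase activity, was 2.86-fold higher in labelled CA3 than labelled CA1 (8.98 ± 0.28 against 7.47 ± 0.39, 1.51 ± 0.08, adjusted p = 6.29e-30), with no overlap of arrays. It was also 2.38-fold lower in labelled CA1 than labelled DG (-1.25 ± 0.08, adjusted p = 8.97e-25). Epha7 went the other way, with 7.01 ± 0.28 in labelled CA1 against 6.1 ± 0.32 in labelled DG (0.91 ± 0.09, adjusted p = 3.71e-15). Epha4, which binds ephrins of both classes, was detected on every array and differed by less, at 13.42 ± 0.13, 13.11 ± 0.17 and 12.94 ± 0.18 in labelled CA3, CA1 and DG. Epha10, which lacks kinase activity, was detected on 0, 0 and 13 of 28 arrays of these regions, and Ephb2, a partner of NMDA receptors at synapses, on 16, 20 and 2.

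The 4 Unc5 genes, whose products are repulsive netrin receptors, differed in their regional order. Unc5a was highest in labelled CA1, where it ran from 8.33 to 9.52 (median 9.04), against 7.31 to 8.53 (median 7.88) in labelled DG (2.22-fold, 1.15 ± 0.19, adjusted p = 1.32e-07), with some overlap. Unc5b was lowest in labelled CA1: it was 2.97-fold higher in labelled CA3 than labelled CA1 (7.82 ± 0.51 against 6.25 ± 0.37, 1.57 ± 0.1, adjusted p = 1.52e-24) and 2.1-fold lower in labelled CA1 than labelled DG (-1.07 ± 0.1, adjusted p = 5.54e-16). Unc5c was highest in labelled CA3, with 9.93 to 10.39 (median 10.14), against 8.52 to 9.34 (median 9.03) in labelled DG and no overlap (2.19-fold, 1.13 ± 0.04, adjusted p = 8.16e-38). Unc5d was detected on 1 of 28 arrays of labelled CA3, 23 of 28 of labelled CA1 and 3 of 28 of labelled DG. It thus passed the detection filter through labelled CA1, so that a difference from the other regions was built in. Its level was 6.35 ± 0.25 in labelled CA1 against 5.34 ± 0.23 in labelled DG. Most arrays of labelled DG were not above background, so the size of the fold is not settled. Dcc, the attractive netrin receptor, was detected on 3, 4 and 0 of 28 arrays.

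Unc5a in labelled CA3 fell into 2 sets of arrays. On the 7 arrays of labelled CA3 that stood apart it ran from 5 to 5.4 (median 5.17), and on the other 21 from 5.86 to 8.37 (median 7.98). The 2 sets did not overlap, and the lowest of the 21 was vehicle home cage replicate 1. Of all 34 members tested in labelled CA3, Unc5a had the largest gap between these sets of arrays (-2.81 log2 units), followed by Sema4c (-1.21) and Sema5b (-1.02). In the opposite direction the largest were Slit3 (0.73) and Ephb2 (0.64). Gaps of at least 0.5 log2 units were seen for 8 of the 34 members and for 20.3% of all probes, and the median absolute gap was 0.16 for members and 0.23 for all probes. Leaving out all 10 arrays that stood apart, 3 of them of labelled CA1, gave a difference in Unc5a between labelled CA3 and labelled CA1 of -1.21 ± 0.11. With all arrays the difference was -1.88 ± 0.19. Between labelled CA3 and labelled DG it was -0.01 ± 0.1 (adjusted p = 0.953) without them and -0.73 ± 0.19 (adjusted p = 0.000403) with them, so that call rested on them. On the 7 arrays 35.35 to 44.28% of probes were detected, against 43.36 to 47.53% on the other 21. The level of each of 12 marker lists overlapped between the 2 sets; the astrocyte list was at 10.32 to 10.96 on the 7 arrays and 10.93 to 11.28 on the 21. Their part in the result was not tested.

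**Figure D3:**
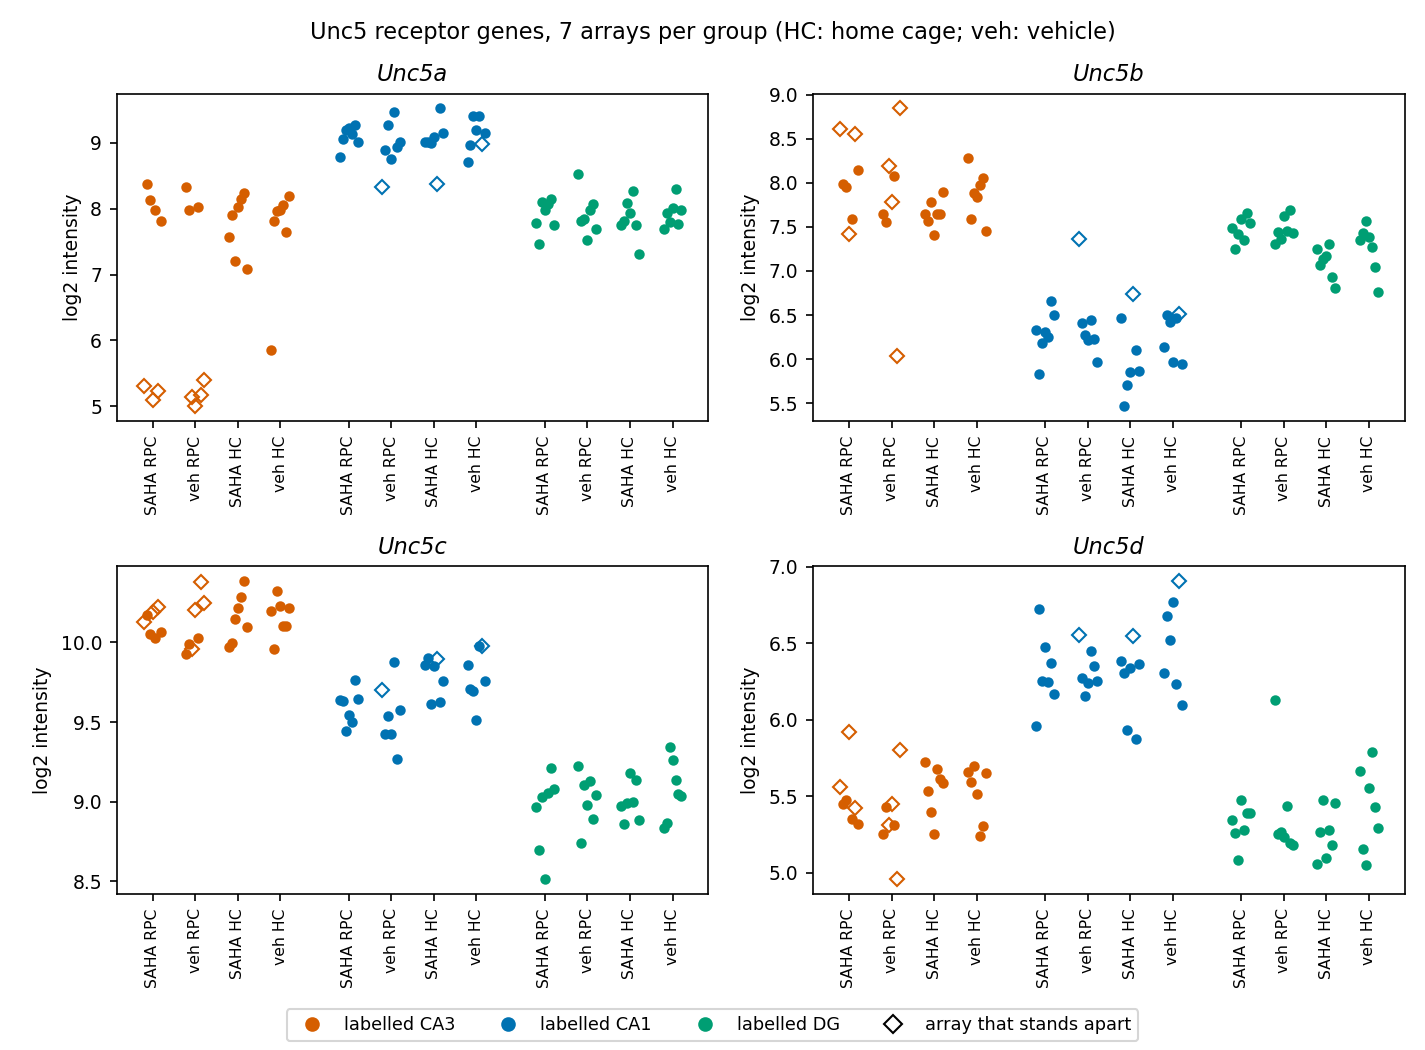
Log2 intensity (y axis) of the 4 Unc5 genes on each array, by region and group on the x axis (7 points a group), with open diamonds for arrays that stand apart. In labelled CA3 the diamonds of Unc5a, all in RPC groups, lie between 5 and 5.4, below the 21 filled points, whereas Unc5c shows no such gap.

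Upstream sequence is shown for the genes with the widest regional ranges, Plxnd1 and Ntng1, and for the Unc5 paralogs that were highest and lowest in labelled CA1, Unc5a and Unc5b. RefSeq promoters on the GRCr8 build, from 250 bases before to 50 after the gene start, were matched for 43 of the 55 genes, 29 of them detectable. The 4 windows lie on the minus strand, at chr4:150715138-150715437 for Plxnd1, chr2:200514982-200515281 for Ntng1, chr17:9675614-9675913 for Unc5a and chr20:29307221-29307520 for Unc5b, and are written 5′ to 3′. Capitals mark GC boxes (GGGCGG on either strand).

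Plxnd1: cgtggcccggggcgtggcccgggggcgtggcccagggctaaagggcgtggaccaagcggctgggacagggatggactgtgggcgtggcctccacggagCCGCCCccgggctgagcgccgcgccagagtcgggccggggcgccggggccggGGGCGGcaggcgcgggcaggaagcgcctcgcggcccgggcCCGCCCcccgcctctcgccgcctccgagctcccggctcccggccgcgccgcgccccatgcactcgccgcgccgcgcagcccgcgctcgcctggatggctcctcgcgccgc

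Ntng1: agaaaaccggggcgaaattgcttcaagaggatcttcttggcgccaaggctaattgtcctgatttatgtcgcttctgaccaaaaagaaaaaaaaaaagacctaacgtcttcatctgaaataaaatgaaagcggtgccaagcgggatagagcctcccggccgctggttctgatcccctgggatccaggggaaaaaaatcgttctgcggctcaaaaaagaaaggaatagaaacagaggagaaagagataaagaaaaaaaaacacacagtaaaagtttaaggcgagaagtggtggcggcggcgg

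Unc5a: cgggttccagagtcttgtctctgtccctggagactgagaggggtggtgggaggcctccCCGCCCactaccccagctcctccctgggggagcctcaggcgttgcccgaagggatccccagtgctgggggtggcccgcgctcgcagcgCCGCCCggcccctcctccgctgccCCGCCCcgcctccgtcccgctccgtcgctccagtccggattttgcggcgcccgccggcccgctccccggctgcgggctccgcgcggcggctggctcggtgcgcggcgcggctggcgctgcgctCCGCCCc

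Unc5b: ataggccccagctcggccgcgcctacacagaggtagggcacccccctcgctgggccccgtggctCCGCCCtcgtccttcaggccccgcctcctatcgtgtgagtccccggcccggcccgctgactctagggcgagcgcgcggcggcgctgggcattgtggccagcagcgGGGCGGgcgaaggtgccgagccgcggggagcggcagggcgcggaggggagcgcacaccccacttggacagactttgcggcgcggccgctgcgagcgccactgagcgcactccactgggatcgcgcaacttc

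The GC box occurred 3 times in the window of Plxnd1, 4 times in that of Unc5a, 2 times in that of Unc5b and 0 times in that of Ntng1. Unc5a, highest in labelled CA1, and Unc5b, lowest there, both held it. The share of G and C bases was 83%, 77.7%, 74.3% and 45.3% in these 4 windows. Over the 43 members, 48.8% of windows held the GC box, against 33.1% of all 33469 promoters, and the median share of G and C was 63.3% against 51.7%. The core letters of the cyclic AMP response element (TGACG, either strand) was in 20.9% of member windows and 21.2% of all promoters, the full element (TGACGTCA, which overlaps the core) in 2.33% and 1.83%, and the TATA box letters (TATAAA, either strand) in 0 of 43 and 14.2%. These are counts of letters in 1 window and not binding sites.

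Markers of other cell types also differed between the regions. Of 11 oligodendrocyte markers tested, 10 were lower in labelled CA1 than labelled DG, 8 of them over 2-fold (median -1.32), and 10 were higher in labelled CA3 than labelled CA1, 7 over 2-fold (median 1.42). Mean levels of the list were 9.45 to 10.96 in labelled CA3, 8.51 to 9.99 in labelled CA1 and 9.62 to 10.57 in labelled DG. Of these markers Gjb1 was detected on 0 arrays of labelled CA1. The members lowest in labelled CA1 and different there from both other regions numbered 11. They were Sema3b, Sema3e, Sema4g, Sema5b, Efnb1, Epha5, Ephb1, Ephb6, Ntn3, Unc5b and Plxnd1. These were 28.2% of members, against 24.4% of all probes, while 12 members were highest in labelled CA1. Plxnd1 was also lower in labelled CA3 than labelled DG (-1.2), where the oligodendrocyte list had median levels of 10.18 and 10.14. The part of the markers in the differences of these members was not tested. Interneuron markers had 5 of 8 lower in labelled CA1 than labelled DG and 7 of 8 higher in labelled CA3 than labelled CA1. Astrocyte markers were lower in labelled CA3 than labelled DG for 9 of 9, and microglial markers for 7 of 8. Between labelled CA1 and labelled DG, where 50.2% of all calls were higher, 8 of 8 microglial markers, 7 of 9 astrocyte markers, 5 of 6 endothelial markers, 3 of 4 oligodendrocyte precursor markers, 3 of 3 mural and fibroblast markers and 1 of 2 thalamic markers were lower. The CA3 pyramidal list was higher in labelled CA3 than labelled CA1 for 4 of 5. The choroid plexus list rested on 1 tested gene, and its mean level per array ran from 4.94 to 7.31 in labelled CA3.

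Other genes of the guidance pathways, 115 genes in 5 lists chosen by function, were counted beside the members. Over all arrays 76 were tested. Between labelled CA1 and labelled DG 29 were higher and 36 lower, 7 of them over 2-fold (9.21% of the list, against 4.6% of all probes). Between labelled CA3 and labelled CA1 32 were higher and 35 lower, 9 over 2-fold (11.8% against 9.53%), and between labelled CA3 and labelled DG 22 were higher and 39 lower, 5 over 2-fold (6.58% against 6.12%). For 4 of the lists, over 2-fold between labelled CA1 and labelled DG were 2 of 17 tested collapsin, plexin and neuropilin effectors, 1 of 14 Eph signalling genes, 2 of 21 Slit-Robo and netrin signalling genes, and 2 of 10 other cues and receptors. Tiam1, a Rac activator that works downstream of EphB receptors, was lower in labelled CA3 than labelled CA1 (-3.01 ± 0.07, adjusted p = 9.16e-51). It was also higher in labelled CA1 than labelled DG (1.62, adjusted p = 4.79e-33) and lower in labelled CA3 than labelled DG (-1.39 ± 0.07, adjusted p = 7.28e-29). Flrt3, a ligand of Unc5 receptors, was higher in labelled CA1 than labelled DG (1.79 ± 0.07, adjusted p = 3.15e-38), and in labelled CA3 than labelled DG (1.07 ± 0.07, adjusted p = 1.14e-24). Cxcl12, a chemokine that guides migrating neurons, was also higher in labelled CA1 than labelled DG (1.48 ± 0.06, adjusted p = 1.52e-34), and lower in labelled CA3 than labelled CA1 (-2.02 ± 0.06, adjusted p = 1.88e-43). Rasa1, a Ras inhibitor that binds EphB receptors, was higher in labelled CA3 than labelled CA1 (1.07 ± 0.05, adjusted p = 1.93e-32). Farp1 had a lower level in labelled CA3 than labelled DG (-1 ± 0.07, adjusted p = 4.57e-22).

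Whether the maze session moved guidance genes was asked next, in vehicle rats and in SAHA rats, within each region. In labelled CA1 of vehicle rats 1 of 32 members was called, against 6.44% of the 9919 probes tested, and 7 (21.9%) had an unadjusted p under 0.05, against 23.8% of all probes. Of 9 astrocyte markers 2 were higher in the same comparison, and their part in the result was not tested. This was Slit1, which ran from 11.68 to 12.16 (median 11.98) in vehicle RPC rats and from 11.52 to 11.87 (median 11.71) in vehicle home cage rats. Of the 7 RPC arrays, 5 lay above every home cage array, and the groups overlapped. The difference was 0.27 ± 0.08 (adjusted p = 0.0445). Without the arrays that stood apart it was 0.29 (adjusted p = 0.0382). Leaving out 1 array at a time gave adjusted p from 0.0192 to 0.107, and 10 of the 14 omissions (vehicle RPC replicates 3 to 7 and vehicle home cage replicates 1, 3, 4, 6 and 7) ended the call. In SAHA rats Slit1 in labelled CA1 ran from 11.73 to 12.15 (median 11.89) after RPC and from 11.42 to 11.85 (median 11.74) in the home cage (0.2 ± 0.08, adjusted p = 0.209). The interaction of drug and maze for Slit1 there was -0.07.

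A pair of members came close to the threshold in labelled CA1 of vehicle rats. Ephb2 ran from 5.78 to 6.14 (median 5.87) in vehicle RPC rats and from 5.89 to 6.71 (median 6.3) in vehicle home cage rats. Of the 7 RPC arrays, 4 were below every home cage array (-0.41 ± 0.13, adjusted p = 0.0573). Slit3 was at 7.77 ± 0.22 against 8.18 ± 0.3 (-0.42 ± 0.14, adjusted p = 0.0609, n = 7 rats each, limma). Neither was called. Among all 639 called probes of this comparison 38.2% were higher in RPC rats, and 99.2% under median scaling, so the direction of the whole set rests on the scaling. Slit1 kept its direction and missed the threshold under median scaling, and its adjusted p ran from 0.0199 to 0.0797 over the alternatives other than leaving out 1 array. In SAHA rats 0 of 32 members were called in labelled CA1 by limma, against 2.51% of all probes, and 4 (12.5%) had an unadjusted p under 0.05, against 15.5% of all probes. Of the called probes 70.3% were higher and 93.8% under median scaling. Sema3b, the first by p, was higher in all 7 SAHA RPC arrays than in every SAHA home cage array, with 6.36 ± 0.14 against 5.84 ± 0.24 and detection on 7 and 1 of 7 arrays (0.52 ± 0.18, adjusted p = 0.133, limma). The share of all probes without overlap of these groups was not counted. Sema4a followed with 10.56 ± 0.1 against 10.38 ± 0.11 (adjusted p = 0.218, limma).

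In labelled DG, Unc5b ran from 7.25 to 7.66 (median 7.49) in SAHA RPC rats and from 6.81 to 7.3 (median 7.14) in SAHA home cage rats. Of the 7 RPC arrays, 6 lay above every home cage array, with a difference of 0.37 ± 0.1 and adjusted p = 0.05004, just outside the threshold (0.042 to 0.811 over the alternatives). Of 8 microglial markers 2 were higher in this comparison, and their part was not tested. In vehicle rats Unc5b was at 7.47 ± 0.14 against 7.26 ± 0.27 (0.21 ± 0.1, adjusted p = 0.554, limma). The count of members called in labelled DG was 0 of 34 in SAHA rats, against 1.45% of all probes, and 0 of 34 in vehicle rats, against 0.322% (limma; 2 and 3 members at an unadjusted p under 0.05, or 5.88% and 8.82%, against 13.9% and 8.45% of all probes). Ntng1 was lower in SAHA RPC than in SAHA home cage rats on all 7 arrays against the home cage mean (9.2 ± 0.22 against 9.62 ± 0.17, adjusted p = 0.154, limma). Plxnb2 was at 8.68 ± 0.16 against 8.5 ± 0.13 (adjusted p = 0.371, limma). In vehicle rats Ephb1 had the smallest p in labelled DG, with 9.22 ± 0.13 in RPC rats and 8.92 ± 0.15 in home cage rats (0.3 ± 0.08, adjusted p = 0.174, limma), and Epha10 was detected on 5 of 7 RPC arrays and 1 of 7 home cage arrays (0.37 ± 0.15, adjusted p = 0.485, limma).

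In labelled CA3 no member was called for the maze session: 0 of 34 in vehicle rats, against 0.0189% of all probes, and 0 of 34 in SAHA rats, against 0.0283% (limma; 5 and 1 members at an unadjusted p under 0.05, or 14.7% and 2.94%, against 19.8% and 3.95% of all probes). The 3 regions were also fitted together, with the replicate number within a group as a random block. This number is not stated to mark 1 rat across regions. In vehicle rats 4 of 39 members (Efna2, Plxnb2, Sema5b and Unc5a) were then called, against 20.2% of all probes. That fit took a single spread per probe over the 3 regions. The SD of Unc5a was 1.26 in labelled CA3, 0.28 in labelled CA1 and 0.26 in labelled DG. The consensus correlation within such a block was -0.0108. Which part of the fit moved the calls was not tested. All 7 arrays that stood apart were in RPC groups, 4 of 7 in vehicle and 3 of 7 in SAHA rats. Unc5a was at 6.43 ± 1.57 in vehicle RPC and 7.64 ± 0.81 in vehicle home cage rats (-1.21 ± 0.6, adjusted p = 0.254, limma). In SAHA rats it was at 6.85 ± 1.54 against 7.74 ± 0.46 (-0.89 ± 0.6, adjusted p = 0.999, limma). Without those arrays the vehicle difference was 0.46 ± 0.34 (adjusted p = 0.717), with 3 RPC and 7 home cage arrays left. Plxna2 was at 6.57 ± 0.49 in vehicle RPC and 7.07 ± 0.21 in vehicle home cage rats (-0.5 ± 0.2, adjusted p = 0.247), and -0.06 without those arrays. The other members with the smallest p were Sema4g and Ephb6 in vehicle rats (differences of 0.37 and 0.32, adjusted p = 0.247 for both), and Slit1, Ntng1 and Sema3b in SAHA rats (-0.16, -0.34 and 0.25, adjusted p = 0.999 for each).

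**Figure D4:**
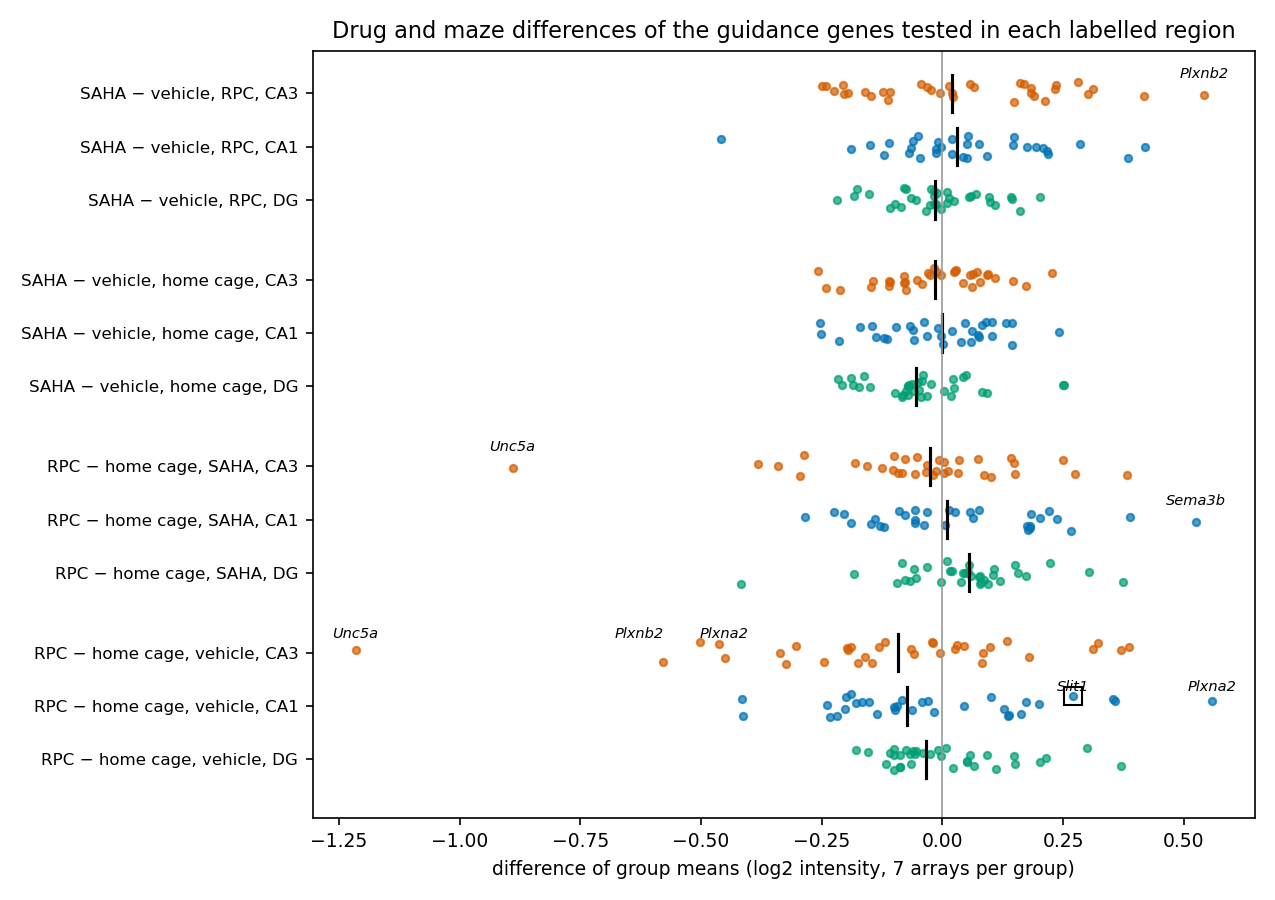
Differences of group means in log2 units (x axis) for 32 to 34 guidance genes a row, with a row for each of 4 comparisons in labelled CA3, CA1 and DG; black lines are medians, the square marks the called gene Slit1, and names stand at differences of at least 0.5 log2 units. Most points lie close to 0, and Unc5a in labelled CA3 lies furthest out at -1.21.

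No member was called in 6 comparisons of SAHA with vehicle by limma. In RPC rats the counts were 0 of 34 in labelled CA3, 0 of 32 in labelled CA1 and 0 of 34 in labelled DG, against 0%, 0.0605% and 0.0829% of all probes. In home cage rats they were 0 of 34, 0 of 32 and 0 of 34, against 0.00944%, 0.0101% and 0.0276%. At an unadjusted p under 0.05 these comparisons had 1, 2 and 2 members in RPC rats and 0, 1 and 2 in home cage rats. The shares of all probes at that p were 5.08%, 10.6% and 6.35% in RPC rats and 0.491%, 7.16% and 6.47% in home cage rats. Member differences in home cage rats stayed between -0.26 and 0.25 in all 3 regions. The interaction of drug and maze had 0 of 34, 0 of 32 and 0 of 34 members called in labelled CA3, CA1 and DG, against 0%, 0.0101% and 0.00921% of all probes, with 1, 2 and 0 members at an unadjusted p under 0.05, against 2.19%, 8.36% and 2.14% of all probes. The comparisons share their groups: vehicle RPC rats enter both the maze and the drug comparison, and home cage rats likewise.

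Efnb1, a transmembrane ephrin, was higher with SAHA in both labelled CA1 and labelled DG without being called. In labelled CA1 it ran from 7.46 to 7.92 (median 7.65) in SAHA RPC rats and from 7.29 to 7.45 (median 7.4) in vehicle RPC rats, and all 7 SAHA arrays lay above every vehicle array (0.29 ± 0.1, adjusted p = 0.269, and 0.0777 to 0.719 over the alternatives). In home cage rats of labelled CA1 it was at 7.48 ± 0.21 against 7.24 ± 0.22 (0.24 ± 0.1, adjusted p = 0.666, limma). In labelled DG the differences were 0.2 ± 0.09 in RPC rats (adjusted p = 0.696) and 0.25 ± 0.09 in home cage rats (adjusted p = 0.516). Labelled CA3 had -0.01 and 0.07. Ephb2 in labelled CA1 ran from 6.2 to 6.45 (median 6.36) in SAHA RPC rats and from 5.78 to 6.14 (median 5.87) in vehicle RPC rats. These groups did not overlap either (0.42 ± 0.13, adjusted p = 0.233, and 0.0673 to 0.582 over the alternatives), while home cage rats had -0.17 ± 0.13, and the interaction was 0.59 ± 0.19 (adjusted p = 0.574). The vehicle RPC arrays of Ephb2 are the low ones in both of its comparisons. Efnb1 and Ephb2 were picked by their p-values from 32 members, and the share of all probes without overlap of these groups was not counted. Between SAHA and vehicle RPC rats 1 of 5 endothelial markers was lower in labelled CA1 and 1 of 6 higher in labelled DG, and their part was not tested.

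The remaining members with the smallest p gave the following differences of SAHA from vehicle, none called. In labelled CA1, Sema7a was at 0.22 in RPC rats (adjusted p = 0.488), and Unc5d and Sema6b were at -0.25 and -0.21 in home cage rats (adjusted p = 0.729 and 0.793). In labelled CA3, Sema4f, Sema3b and Plxnb2 had -0.16, 0.28 and 0.54 in RPC rats (adjusted p = 0.642 each; Plxnb2 had 0.134 without vehicle RPC replicate 6 and 0.09 without the arrays that stood apart), and Epha4, Epha7 and Plxna2 had -0.11, -0.26 and -0.24 in home cage rats (adjusted p = 1 each). In labelled DG, Ephb1 and Sema4g had -0.18 and 0.16 in RPC rats (adjusted p = 0.753 and 0.874), and Plxna2 and Sema7a had -0.22 and -0.18 in home cage rats (adjusted p = 0.755 and 0.855). For the interaction, Sema7a and Slit2 had 0.33 and -0.26 in labelled CA1, Sema3b, Epha5 and Sema4f had 0.42, 0.34 and -0.19 in labelled CA3, and Ephb1, Ntng1 and Unc5b had -0.2, -0.26 and 0.16 in labelled DG, with adjusted p of at least 0.587.

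**Figure D5:**
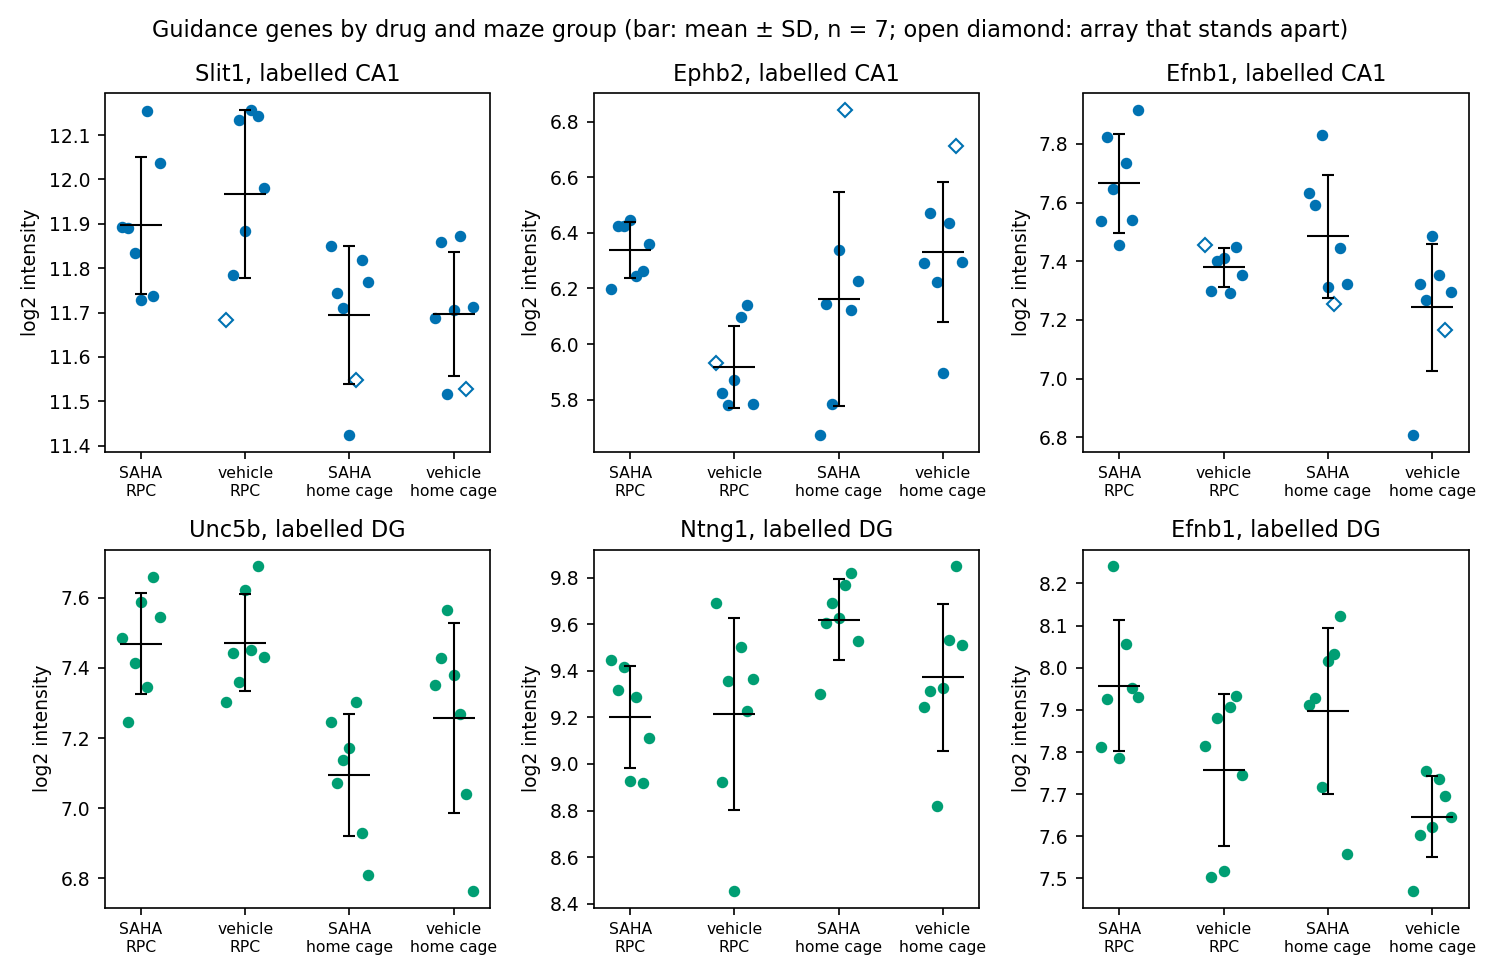
Log2 intensity (y axis) of Slit1, Ephb2 and Efnb1 in labelled CA1 and of Unc5b, Ntng1 and Efnb1 in labelled DG by group (x axis, 7 points each, bars mean ± SD, open diamonds for arrays that stand apart). Slit1 averages 11.97 in vehicle RPC and 11.7 in vehicle home cage rats, and Ephb2 runs low in vehicle RPC rats of labelled CA1, at 5.78 to 6.14.

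Whether the maze effect differed among regions was tested with an F test over all 84 arrays. For RPC against home cage in vehicle rats 4 of 39 members were called, against 5.52% of all probes. Ephb2 had differences of 0.39 in labelled CA3, -0.41 in labelled CA1 and -0.04 in labelled DG (adjusted p = 0.0395). Plxna2 had -0.5, 0.56 and -0.09 in the same order (adjusted p = 0.0431), Ephb1 had 0.02, -0.1 and 0.3 (adjusted p = 0.0447), and Slit1 had -0.15, 0.27 and 0.01 (adjusted p = 0.0463). Without the arrays that stood apart 0 of the 39 were called, with adjusted p of 0.54, 0.48, 0.208 and 0.41 for these 4 genes, and with 3 of 7 vehicle RPC arrays of labelled CA3 left. In labelled CA3 the differences were then -0.07 for Ephb2 and -0.06 for Plxna2, while in labelled CA1 those of Ephb2, Plxna2 and Slit1 were -0.35, 0.44 and 0.29. Ephb1 kept its 0.3 in labelled DG, where 0 arrays stood apart. For RPC against home cage in SAHA rats 0 of 39 members were called, against 0.0438% of all probes. For SAHA against vehicle the counts were 0 of 39 in RPC rats and 0 of 39 in home cage rats, against 0% of all probes in both.

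A few other genes of the guidance pathways were called for the maze session. In labelled CA1 of vehicle rats 3 of 66 were called by limma (4.55%, against 6.44% of all probes). Gsk3b, a kinase that acts on collapsin response proteins, differed by 0.4 ± 0.12 (adjusted p = 0.0408). Limk2, which phosphorylates cofilin, differed by 0.21 ± 0.06 (adjusted p = 0.037), and the GTPase Rhoa by -0.18 ± 0.05 (adjusted p = 0.0393). In labelled CA1 of SAHA rats 1 of 66 was called (1.52%, against 2.51% of all probes), the actin-severing protein Cfl1 (-0.15 ± 0.04, adjusted p = 0.0324). In labelled DG of SAHA rats 2 of 74 were called (2.7%, against 1.45% of all probes). They were Gsk3b (0.48 ± 0.11, adjusted p = 0.019) and the kinase Rock2 (0.36 ± 0.09, adjusted p = 0.0424). These list genes were not recomputed under median scaling, where 99.2% (vehicle) and 93.8% (SAHA) of all calls in labelled CA1 were higher. The lists of Eph signalling, of Slit-Robo and netrin signalling and of other cues and receptors had 0 calls for the maze session. For SAHA against vehicle and for the interaction 0 of the 66 to 74 list genes tested were called in any region (limma).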

How the data were processed

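Hippocampal RNA of 28 rats was measured on 84 Illumina bead arrays. Per the file headers, the authors deposited a signal intensity and a detection p-value for each of 22523 probes and array, not yet normalized. A second deposited table holds the authors' score, the z-score of the log10 signal, which recomputation matched to within 0.013. GenomeStudio 2011.1 is named in the submitters' processing notes. The sources used here do not give bead summarisation or slides. The detection p-value 0.01, the entry of 29.84% of cells, was carried by the brightest probes on all 84 arrays and was read as 0.

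Intensities were background-corrected with normexp from the detection p-values (offset 16), quantile-normalized over all arrays and put on the log2 scale with limma 3.58.1 in R 4.3.3. Drug, maze and interaction differences were fitted within each region, and region differences and F tests over all 84 arrays, by limma with a trended prior and Benjamini-Hochberg adjustment over all tested probes. A call needed adjusted p under 0.05, and between regions also the 2-fold limit where stated. For a probe above background on no array of a region and on every array of the other, the difference is given as at least N-fold. The bound is taken against the lowest signal among detected probes. Samples were grouped by their labels. The fits were tested on simulated data. Replicates are rats, but p-values between regions treat arrays of 1 rat as independent. The replicate number is not stated to mark 1 rat across regions. Between regions of a group, mean correlations of same-numbered arrays were 0.0353 (labelled CA1 and CA3), -0.029 (labelled CA1 and DG) and -0.035 (labelled CA3 and DG). Between groups of a region, where the rats differ, they ran from -0.21 to 0.216. The consensus correlation within a number of a group was -0.0108. The number of arrays limits the precision.

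Members were found by symbol, and values were given in full for up to 6 genes called over 2-fold in each direction of a region comparison, for every called gene of the other comparisons or the 3 with the smallest p, for called genes of the F tests, and for the 3 pathway genes with the smallest p in a comparison with any called; other members are given by range or level to complete their family. The separate counts of 1 pathway list are not reported here. The members and lists were chosen with earlier results of these data known. The counts of members called and the differences of the named members were recomputed from the authors' z-scores, from uncorrected signals and with median scaling. They were also recomputed with every probe or only those detected on every array of the fit, with array weights, without arrays that stood apart and with replicate blocks. Leaving out 1 array at a time was done only for the drug, maze and interaction comparisons. The pathway and marker lists, the counts of members without overlap and the highest regions were not recomputed in these ways.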

Additional observations from a re-analysis of the deposited data

Results flagged for a closer look

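In 4 of 83 sets of 7 arrays of a gene and group, 1 array lay far from the other 6, which chance alone gives in about 1 set in 20. Plxnb2 in labelled CA3 was at 5.21 on vehicle RPC replicate 6, where the next lowest array of the group was at 7.18; this array also had the lowest correlation with its region (0.9111) and 35.35% of probes detected. Ephb6 in labelled CA3 was at 8.55 on vehicle home cage replicate 2, with the next lowest at 8.79. Sema4g in labelled DG was at 7.2 on SAHA RPC replicate 4, with the next lowest at 7.71. Epha10 in labelled DG was at 6.33 on vehicle home cage replicate 2, with the next highest at 5.66.

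By the F test of limma, the difference of RPC from home cage in vehicle rats was not the same in the 3 regions for 4 of 39 members. The share of all probes called by this test was 5.52%. The 4 members were Ephb2 (adjusted p = 0.0395), Plxna2 (adjusted p = 0.0431), Ephb1 (adjusted p = 0.0447) and Slit1 (adjusted p = 0.0463). Without the 10 arrays that stood apart these were 0.54, 0.48, 0.208 and 0.41. The difference in labelled CA3 was then -0.07 for Ephb2 (0.39 with all arrays) and -0.06 for Plxna2 (-0.5 with all arrays), that of Slit1 in labelled CA1 was 0.29 (0.27 with all arrays), and that of Ephb1 in labelled DG was 0.3 in both.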

How the results depend on the processing

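Over 68 named gene comparisons and their alternatives, 1262 values kept direction and side of the threshold, 43 lost and 10 gained a call, and 3 reversed. The reversed ones were RPC minus home cage in labelled CA3: Sema4g (-0.128) and Ephb6 (-0.107) in vehicle rats without the arrays that stood apart, and Slit1 (0.00542) in SAHA rats under median scaling; none of these was called. The causes of the changes below were not tested, except that the strict filter tests fewer genes and the left-out arrays are fewer samples. With the main settings the shares of all probes called are given with the results above. For most alternatives these shares are not given here, so those member counts have no background beside them. Members called for RPC against home cage in labelled CA1 of vehicle rats numbered 1, and 0 with the authors' z-scores, under median scaling or without a filter, 5 with array weights (Epha4, Ephb2, Slit1, Slit3 and Unc5c), and 0 to 3 when 1 array was left out. In SAHA rats the same count was 0, and 1 under median scaling or with array weights and 2 (Plxnd1 and Sema3b) without the arrays that stood apart. In labelled DG of SAHA rats it was 0, and 1 (Unc5b) without background correction, under median scaling, with the strict filter or array weights, and 0 to 1 when 1 array was left out (1 without SAHA home cage replicate 1 or 5 or SAHA RPC replicate 2).

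Members over 2-fold between labelled CA1 and labelled DG numbered 9, and 5 without background correction and 3 with the strict filter. Between labelled CA3 and labelled CA1 they numbered 9, and 4 with the strict filter. Between labelled CA3 and labelled DG they numbered 7, and 4 with the z-scores, 4 without background correction and 3 (Nrp1, Plxnd1 and Unc5c) without the arrays that stood apart. Effects that differed among regions numbered 4 for RPC in vehicle rats, and 1 with the z-scores, 0 under median scaling, without a filter or without the arrays that stood apart, 2 with the strict filter and 7 with array weights. For RPC in SAHA rats the count was 0, and 1 without those arrays, and for SAHA in RPC rats 0, and 3 with array weights.

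Replicate numbers did not pair the arrays. With the replicate number as a fixed block, 2 members (Slit1 and Slit3) were called for RPC in labelled CA1 of vehicle rats in place of 1. With all arrays in one fit and the rat as a random replicate block, 4 members (Efna2, Plxnb2, Sema5b and Unc5a) were called for RPC in labelled CA3 of vehicle rats in place of 0, and the other counts stayed within 1.5 times. That fit also took a single spread per probe over all regions, and its consensus correlation was -0.0108. Which of these moved the calls was not tested.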
